A study of Mus musculus with 1 sample.

Results

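Ly6k, Dpep3, Prss50, Tex101, Ly6e, Ly6a and Ly6c1 were 7 of the 27998 genes listed for testis cells of wild-type mice, and each symbol matched 1 row of the gene list. They were chosen by name, as genes for cell surface proteins of the testis and their relatives, with single-cell results of these same cells already known. Ly6k in particular was selected on its high ratio between differentiating and undifferentiated germ cells, so the values below describe the genes and test nothing. The library came from C57BL/6 mice at postnatal day 8 with the wild-type genotype, the control of a study of Zscan2 knockout mice whose knockout library was not analysed here. Cells of 3 mice were combined in equal numbers in 1 tube. They had been enriched with magnetic beads against THY1, a surface protein used to collect spermatogonia, and a small number of unselected testis cells was added back. Shares of cell types therefore follow this mixture, and with 1 pooled library there is no replicate and no test.

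Most of these genes encode proteins held in the outer membrane by a glycosylphosphatidylinositol (GPI) anchor, a lipid added in the endoplasmic reticulum. LY6K and TEX101 belong to the LY6 and uPAR family of small disulfide-rich domains, and in the mouse testis both are needed for the maturation of ADAM3, a sperm protein required for passage into the oviduct. DPEP3 is a membrane dipeptidase that binds TEX101, and PRSS50 is a testis protease with a threonine in place of the catalytic serine. LY6E is a widely expressed family member that is a receptor for the placental protein syncytin-A, LY6A (Sca-1) marks blood stem cells and many endothelial cells, and LY6C1 is found on endothelial and myeloid cells.

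The 4 LY6 genes lie in 1 stretch of chromosome 15 (GRCm38, GENCODE annotation), and the other members lie elsewhere. Ly6k (ENSMUSG00000044678) is at chr15:74796874-74799986 on the minus strand, Ly6e (ENSMUSG00000022587) at chr15:74955051-74959905 on the plus strand, Ly6a (ENSMUSG00000075602) at chr15:74994877-74998031 and Ly6c1 (ENSMUSG00000079018) at chr15:75044018-75048830, both on the minus strand. Tex101 (ENSMUSG00000062773) is at chr7:24668007-24676675 and Dpep3 (ENSMUSG00000031898) at chr8:105973513-105979429, both on the minus strand, and Prss50 (ENSMUSG00000048752) is at chr9:110857967-110864629 on the plus strand. Ly6k overlaps an antisense gene, Gm17189, which had 0 UMIs in the 920 cells kept. Dpep3 overlaps a lincRNA on the other strand, Gm45752, which was not analysed here.

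Promoters are shown for the germ cell genes Dpep3, Prss50 and Tex101, which were high in the same small cluster of cells described below. RefSeq (GRCm38.p6) held a promoter for 4 of the 7 genes, and none for Ly6k, Ly6e and Ly6a. Prss50 and Ly6c1 had 2 promoters each, of which only the first listed was searched. The 250 bases before each start were searched on both strands for a CCAAT box (CCAAT), a GC box (GGGCGG), a cAMP response element (TGACGTCA), an E box (CACGTG) and the motif bound by the meiotic regulator STRA8 (CNCCTCAG). Matches are in capitals, and the sequences run 5′ to 3′ on the strand of the gene, ending at the start. Tex101 is from chr7:24672051-24672300 and lies directly before the first exon of 1 transcript and within an intron of the others, Prss50 is from chr9:110857714-110857963, and Dpep3 is from chr8:105979420-105979669.
Tex101: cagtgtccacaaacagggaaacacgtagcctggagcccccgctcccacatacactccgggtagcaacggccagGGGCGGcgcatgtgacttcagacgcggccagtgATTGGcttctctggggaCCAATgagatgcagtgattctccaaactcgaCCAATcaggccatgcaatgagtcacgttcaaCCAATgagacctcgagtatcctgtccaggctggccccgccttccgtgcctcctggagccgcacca
Prss50: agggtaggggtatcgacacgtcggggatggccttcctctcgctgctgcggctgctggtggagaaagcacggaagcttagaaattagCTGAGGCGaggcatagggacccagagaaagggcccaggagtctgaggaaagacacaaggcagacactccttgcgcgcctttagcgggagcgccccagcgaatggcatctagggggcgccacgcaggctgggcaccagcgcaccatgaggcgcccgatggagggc
Dpep3: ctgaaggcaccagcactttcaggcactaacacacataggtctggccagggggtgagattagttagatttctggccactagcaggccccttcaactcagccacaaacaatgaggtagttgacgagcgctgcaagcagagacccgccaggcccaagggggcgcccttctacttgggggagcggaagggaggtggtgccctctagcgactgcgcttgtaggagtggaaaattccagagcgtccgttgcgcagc

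Tex101 had 4 CCAAT boxes and 1 GC box. At least 1 CCAAT box was present in 34.5% of 27025 promoters of the same length, but 3 or more in only 2.98%, and a GC box was present in 32.9%. Prss50 had 1 match to the STRA8 motif, on the opposite strand and beginning 164 bases before the start, as 6.39% of promoters did. Dpep3 had none of the 5 motifs, of which the cAMP response element occurs in 1.62% and the E box in 6.05% of promoters. The number of CpG dinucleotides was 14 for Tex101, 17 for Prss50 and 10 for Dpep3, against a median of 6, while the somatic gene Ly6c1 had 1 CpG and 1 CCAAT box. A match describes the letters of the window and is not evidence of binding.

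The matrix held 970 barcodes with 2655 to 44915 UMIs each (unique molecular identifiers, which count captured RNA molecules) and a median of 9115. After filters 920 cells remained, of which 324 were in germ cell clusters and 596 in somatic clusters. The study reported more wild-type spermatogonia in its own analysis, and the reason for this difference was not tested. The germ cells formed 4 clusters: 112 cells like spermatogonial stem cells (SSC-like), 79 progenitor-like cells, and 2 clusters of differentiating-like spermatogonia, 1 of 101 cells led by Stra8 and 1 of 32 cells led by Esx1. Stra8 is the retinoic acid-induced gene of meiotic entry, and Esx1 is an X-linked homeobox gene. SSC-like and progenitor-like cells are together called undifferentiated. Levels are UMIs of a gene per 1000000 UMIs of the class (CPM), with exact Poisson intervals. All intervals are at the 95% level and cover counting error only. Germ cells had a median of 18216.5 UMIs and somatic cells of 8193.5.

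Ly6k, Dpep3, Prss50 and Tex101 were genes of germ cells. In the kept cells they had 124, 121, 129 and 934 UMIs, of which 96.0%, 98.3%, 96.9% and 98.4% were in germ cells. All 4 had their highest level in the Esx1-led cluster, but they differed in how much they had elsewhere. Of the UMIs in germ cells, that cluster of 32 cells held 91.2% for Prss50, 83.2% for Ly6k, 42.0% for Dpep3 and 21.0% for Tex101.

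Ly6k had 0 UMIs in SSC-like cells, which allows up to 1.23 CPM (3 counts), and 1 UMI or 0.691 CPM in progenitor-like cells. It had 15.1 CPM (interval 9.10 to 23.6, 19 UMIs) in the Stra8-led and 244 CPM (198 to 297, 99 UMIs) in the Esx1-led cluster. The level was thus higher in the Esx1-led than in the Stra8-led cluster, and higher in the Stra8-led cluster than in undifferentiated cells. These intervals do not overlap. The order of the clusters in development was not tested. The log2 ratio was 4.01 (exact conditional binomial interval 3.29 to 4.80) for the Esx1-led over the Stra8-led cluster and 5.88 (3.22 to 11.25) for the Stra8-led cluster over undifferentiated cells. For all differentiating-like over undifferentiated cells it was 8.11 (5.60 to 13.42), a ratio that rests on 118 UMIs against 1 and is the one on which Ly6k was selected. It was 5.35 when clusters and levels were taken from separate parts of the counts. With the ranking of leading genes that was first used to name clusters it was 4.66. That first ranking was replaced with its outcome known. In the Esx1-led cluster the number of UMIs per cell ranged from 0 to 16 with a median of 1, and no other germ cell held more than 2.

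Among the germ cell genes, Prss50 had the largest share of its germ cell UMIs in the Esx1-led cluster. SSC-like cells held 3 UMIs (1.23 CPM), progenitor-like cells 2 (1.38 CPM) and Stra8-led cells 6 (4.77 CPM), whereas the Esx1-led cluster held 114 (281 CPM, interval 232 to 337). The log2 ratio of the Esx1-led over the Stra8-led cluster was 5.88 (4.71 to 7.35), whereas that of the Stra8-led cluster over undifferentiated cells, 1.89, had an interval of -0.08 to 3.94. In the Stra8-led cluster Prss50 was therefore not distinguished from its level in undifferentiated cells, with 6 UMIs against 5. The intervals of this ratio for Ly6k and Prss50 overlap, so no difference between these genes is read from it. Cells of the Esx1-led cluster held 0 to 9 Prss50 UMIs with a median of 3, and no germ cell outside it held more than 2.

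Dpep3 was detected at a low level in all 4 germ cell clusters, at 13.1 CPM (8.95 to 18.5) among SSC-like, 16.6 CPM (10.6 to 24.7) among progenitor-like and 10.3 CPM (5.50 to 17.7) among Stra8-led cells. These 3 intervals overlap. Its level in the Esx1-led cluster was 123 CPM (91.4 to 162), a log2 ratio of 3.57 (2.67 to 4.58) over the Stra8-led cluster. Cells of the cluster held 0 to 5 UMIs with a median of 1, close to the highest count of 3 elsewhere.

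Tex101 had the highest level of the 4 genes in each of the 4 germ cell clusters, as CPM, which in a library of 3′ tags does not depend on transcript length as it does for full-length reads. The level was 139 CPM (125 to 155) among SSC-like, 151 CPM (132 to 173) among progenitor-like and 132 CPM (113 to 154) among Stra8-led cells, and these intervals overlap. The log2 ratio of the Stra8-led cluster over undifferentiated cells was -0.12 (-0.38 to 0.13) and that of SSC-like over progenitor-like cells -0.12 (-0.37 to 0.13). It reached 475 CPM (410 to 547) in the Esx1-led cluster, a log2 ratio of 1.85 (1.54 to 2.16) over the Stra8-led cluster. Cells of that cluster held 0 to 20 UMIs with a median of 4, and the counts overlapped widely with those of the other germ cells, whose highest was 14.

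**Figure D1:**
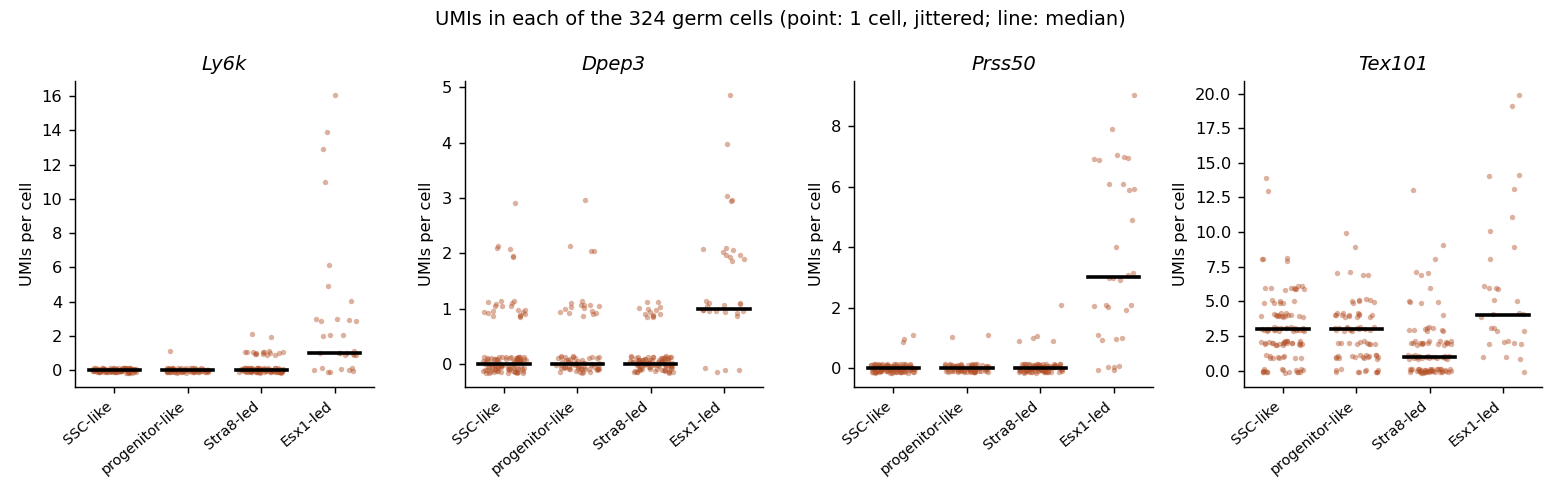
UMIs of Ly6k, Dpep3, Prss50 and Tex101 (y axis) in each germ cell by cluster (x axis), with 1 jittered point per cell and a line at the median. Ly6k and Prss50 reached 16 and 9 UMIs in the 32 cells of the Esx1-led cluster and at most 2 in 18 and 10 other cells with a UMI, whereas Tex101 had a median of 3 in SSC-like and progenitor-like cells too.

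Of the 5 member genes with at least 20 UMIs in germ cells, 3 (Ly6k, Dpep3 and Prss50) were higher in differentiating-like than in undifferentiated cells by a log2 ratio of at least 1, as 8.15% of 10519 genes were, and none was lower by as much, as 10.4% of genes were. Tex101 had a log2 ratio of 0.58 (0.39 to 0.78), or 1.15 with the first ranking of leading genes, and Ly6e of -0.24 (-0.85 to 0.34). In the Esx1-led cluster against all other germ cells, the 4 germ cell genes had log2 ratios of 5.97 (Ly6k), 3.20 (Dpep3), 7.04 (Prss50) and 1.75 (Tex101), past a limit that 13.3% of genes passed upwards and 22.0% downwards. Without the 1 cell with the most UMIs of the gene these were 5.75, 3.08, 6.96 and 1.64. Nothing is read from these counts, since the genes were chosen by this contrast or with it known and all 4 were among the variable genes that made the clusters. Prss50 and Ly6k were also among the 10 leading genes of the Esx1-led cluster.

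The cluster also formed without these genes. When all 7 genes were left out of the variable genes, an Esx1-led cluster of 39 cells formed that held all 32 cells, which made up 82.1% of it. The 7 cells added held 2 UMIs of Ly6k, 3 of Dpep3, 2 of Prss50 and 13 of Tex101. In these 39 cells Ly6k had 197 CPM (161 to 240), Dpep3 104 CPM (77.5 to 135), Prss50 227 CPM (187 to 272) and Tex101 402 CPM (349 to 461). At a finer resolution of 1.2 the other germ cells formed 5 clusters. Ly6k had 17.2 CPM (9.85 to 28.0, 16 UMIs) in 49 cells led by Kit, the receptor that marks differentiating spermatogonia. It had 1 UMI in 53 cells of low depth led by Eif4a1, with a median of 4079 UMIs, 1 UMI in 77 cells led by Ddit4, and 0 UMIs in the 61 and 45 cells led by Sdc4 and Nefm.

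The depth of cells differed between clusters, with medians of 22293 UMIs in SSC-like, 19446 in progenitor-like, 8530 in Stra8-led and 12208 in Esx1-led cells, so the shares of cells with a UMI were also taken after each cell was thinned to 5000 UMIs. A Ly6k UMI was found in 75% of Esx1-led cells (exact binomial interval 56.6 to 88.5%) and in 48.4% (30.2 to 66.9%) of the 31 that could be thinned. For Prss50 the shares were 84.4% and 61.3%, for Dpep3 87.5% and 35.5%, and for Tex101 96.9% and 87.1%. Of 182 thinned undifferentiated cells, 0 had a Ly6k or a Prss50 UMI, which allows a share of up to 1.65%, while 8.24% had a Dpep3 and 52.7% a Tex101 UMI. In thinned Stra8-led cells (66 cells, 35 left out as too shallow) the shares were 9.09% for Ly6k, 1.52% for Dpep3, 3.03% for Prss50 and 40.9% for Tex101. Here the Dpep3 share rests on 1 cell, and its interval (0.0384 to 8.16%) overlaps that of undifferentiated cells (4.69 to 13.2%). After thinning to 3000 UMIs the Dpep3 share was 5.68% in Stra8-led and 4.32% in undifferentiated cells.

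Somatic cells were taken as a measure of background, on the assumption, not tested, that they lack these genes. Their CPM was 0.933 for Ly6k, 0.373 for Dpep3, 0.746 for Prss50 and 2.80 for Tex101, and 0.839%, 0.336%, 0.671% and 2.52% of them had a UMI. At most 1 UMI of each gene was found in any of these cells, and 26 of 596 cells held 1 of the 4 genes and 0 cells held more. The summed CPM of 6 germ cell markers was 31.7 in somatic against 1350 in germ cells. Taken as CPM, the single Ly6k UMI of undifferentiated cells (0.257 CPM) is at or below this background. The 5 Prss50 UMIs (1.28 CPM, interval 0.417 to 3.00) are not separable from it in that unit. Undifferentiated cells were deeper, with a median of 20155 UMIs against 8193.5 in somatic cells, and a background counted per cell was not compared.

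Of the 324 germ cells 57 held none of the 4 genes, 172 held 1, 57 held 2, 19 held 3 and 19 held all 4. All 4 were detected in 19 of the 32 Esx1-led cells and in 0 of the other 292 germ cells. Of 42 germ cells with a Ly6k UMI, 24 also held Prss50, 26 Dpep3 and 37 Tex101, and all 37 cells with Prss50 held Tex101, which was found in 255 germ cells (78.7%). Over the 324 germ cells, Pearson's r of log-normalized values was 0.79 for Ly6k and Prss50 (0.68 in 279 thinned cells) and 0.27 for Dpep3 and Tex101 (0.12). Within the Esx1-led cluster r was 0.83 for Prss50 and Tex101 (0.66 in 31 thinned cells), 0.78 for Ly6k and Tex101 (0.49) and 0.62 for Ly6k and Prss50 (0.53), but 0.13 to 0.23 for Dpep3 with the others. These values describe cells of 1 library that share depth and source.

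The cells that held each gene were also described by genes of known stage. Stra8, Kit and Sycp3 were among the markers that named the differentiating-like clusters, and Ly6k was selected on that contrast. Its overlap with them is therefore not an independent placing. Of the 42 germ cells with Ly6k, 40 held Stra8, 39 held Sycp3 (a protein of the synaptonemal complex), 30 held Esx1 and 23 held Kit, but 1 held Gfra1, the GDNF co-receptor of undifferentiated spermatogonia, and 17 held Zbtb16. Of the 37 cells with Prss50, 30 held Stra8, 31 Esx1, 20 Meioc and 4 Gfra1. Of the 255 cells with Tex101, 86 held Gfra1 and 174 held Zbtb16, and of the 85 with Dpep3, 26 held Gfra1 and 50 held Zbtb16. Of all 324 germ cells, 171 held Stra8, 272 Sycp3, 75 Esx1, 84 Kit, 97 Gfra1, 206 Zbtb16 and 35 Meioc, so Sycp3 was also found in most cells without Ly6k.

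Germ cells were also staged with a score that used none of the 7 genes and put in 5 bins. The score was the mean of the differentiating markers minus that of the SSC and progenitor markers. These markers also named the germ cell clusters. Ly6k was selected on the contrast between those clusters, and the other genes were chosen with it known. The bins are therefore not an independent placing of these genes. Stra8 went from 4.64 CPM in the lowest to 1359 CPM in the highest bin and Gfra1 from 61.1 to 1.32 CPM, both as a result of the score or close to it. From the lowest to the highest bin Ly6k had 0, 0.729, 1.85, 20 and 125 CPM. Prss50 had 1.55, 0.729, 4.62, 24.8 and 120 CPM. Dpep3 had 17.0, 10.9, 14.8, 24.8 and 52.7 CPM, and Tex101 144, 136, 147, 165 and 282 CPM. Ly6k and Prss50 were therefore at a few UMIs in the first 3 bins. Dpep3 and Tex101 had a low or moderate level from the first bin and their highest in the last. For both, the intervals of bins 1 to 4 overlap, so whether the level rose before the last bin is not read from them. The log2 ratio of the highest bin over the lowest 3 was 7.29 (5.70 to 9.59) for Ly6k, 5.81 (4.77 to 7.06) for Prss50, 1.90 (1.27 to 2.52) for Dpep3 and 0.99 (0.75 to 1.22) for Tex101. The bins held 0, 0, 1, 11 and 20 cells of the Esx1-led cluster, so the score spread these cells over its upper bins.

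**Figure D2:**
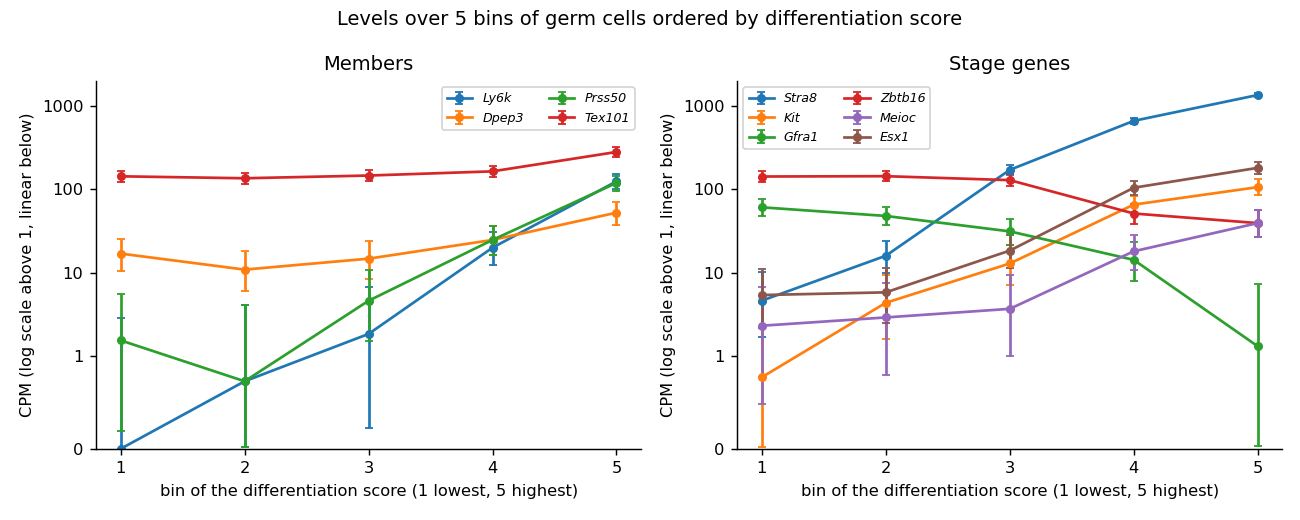
Levels in CPM (y axis, logarithmic above 1 and linear below) over 5 bins of germ cells ordered by differentiation score (x axis), with exact Poisson 95% intervals, for the 4 germ cell genes on the left and stage genes on the right. Ly6k and Prss50 reached 125 and 120 CPM in the highest bin from under 5 CPM in the first 3, while Tex101 stayed between 136 and 165 CPM over the first 4 bins.

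The genes whose pattern over germ cells was most like each member, among 9020 genes found in at least 10% of these cells, were shared in part. H2-K1 and Meioc were listed for every germ cell gene, but Acer3, Ergic3, Bsg, Hspa5 and Ssr2 for only 1 each. For Ly6k the genes most alike were H2-K1 (Pearson's r 0.72), Meioc (0.68), Acer3 (0.64), Emc7 (0.61) and 1700013H16Rik (0.60). For Prss50 they were Esx1 (0.72), Meioc (0.70), 1700013H16Rik (0.69), H2-K1 (0.68) and Emc7 (0.62). H2-K1 is a class I histocompatibility gene, Meioc acts with YTHDC2 in meiotic progression, Acer3 is a ceramidase and Emc7 a subunit of a complex that inserts membrane proteins. For Dpep3 r was lower, with 1700013H16Rik (0.47), Esx1 (0.46), H2-K1 (0.46), Meioc (0.41) and Ergic3 (0.38). For Tex101 the list held Bsg (0.44), Hspa5 (0.43), H2-K1 (0.41), Meioc (0.41) and Ssr2 (0.40), of which Hspa5 encodes the main chaperone of the endoplasmic reticulum and Ssr2 a subunit at its translocation channel. In cells thinned to 5000 UMIs r with Tex101 was 0.22 for Bsg, 0.15 for Hspa5 and 0.21 for Ssr2, but 0.41 for H2-K1 and 0.31 for Meioc. Thinned values were 0.40 to 0.61 for the genes of Ly6k, 0.48 to 0.69 for those of Prss50 and 0.17 to 0.33 for those of Dpep3. Meioc had 103 CPM in the Esx1-led cluster, 5.57 CPM in the Stra8-led cluster and 0 UMIs in somatic cells. H2-K1 had 170 CPM in the Esx1-led and 12.7 CPM in the Stra8-led cluster, and 106 CPM in somatic cells.

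Ly6e, the most abundant of the 7 genes with 1941 UMIs, had the opposite distribution, with 6.59% of its UMIs in germ cells. It had 659 CPM (591 to 733) in macrophage-like, 630 CPM (515 to 764) in T cell-like, 433 CPM (406 to 460) in Sertoli-like, 172 CPM (143 to 204) in peritubular myoid-like and 152 CPM (133 to 172) in stromal-like cells. The intervals of the first 2 overlap, as do those of the last 2, with a log2 ratio of stromal-like over myoid-like cells of -0.18 (-0.49 to 0.14). Between them, Sertoli-like cells were higher than stromal-like cells by a log2 ratio of 1.51 (1.31 to 1.72) and macrophage-like cells higher than Sertoli-like cells by 0.61 (0.43 to 0.79). The T cell-like class also held peritubular myoid and endothelial markers, as given below, so its level is not one of T cells alone. The 3 clusters of Sertoli-like cells, of 132, 78 and 45 cells, had 432, 436 and 429 CPM. In germ cells Ly6e had 25, 22.8, 22.3 and 14.8 CPM in SSC-like, progenitor-like, Stra8-led and Esx1-led cells, with overlapping intervals, so the higher level of the germ cell genes in the Esx1-led cluster was not seen for Ly6e. After thinning, 12.2% of germ and 70.3% of somatic cells held a Ly6e UMI. Summed Sertoli markers were at 51.8 CPM in germ cells and 1834 CPM in all somatic cells, and the part of free RNA in the Ly6e of germ cells was not tested.

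Ly6a and Ly6c1 were rare, with 21 and 28 UMIs in 11 and 18 cells. They had 54.5 CPM (24.9 to 104, 9 UMIs) and 78.8 CPM (41.9 to 135, 13 UMIs) in the 26 T cell-like cells and 4.87 and 4.26 CPM in stromal-like cells. Neither had a UMI in peritubular myoid-like or macrophage-like cells, which allows up to 4.05 and 5.81 CPM, and each had 3 UMIs in germ cells, all in SSC-like cells. The T cell-like name does not describe all of its cells: summed T cell markers had 1206 CPM there, but peritubular myoid markers had 2448 CPM and endothelial markers 624 CPM. Of its cells, 7 held at least 2 T cell markers, 3 held at least 3 endothelial markers and 0 held both. The 3 cells with endothelial markers contained 12 of the 13 Ly6c1 and 5 of the 9 Ly6a UMIs of the cluster, and of 4 cells with each gene 3 held both. With 1 stromal-like cell holding 6 of the 21 Ly6a UMIs, these levels rest on very few cells.

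**Figure D3:**
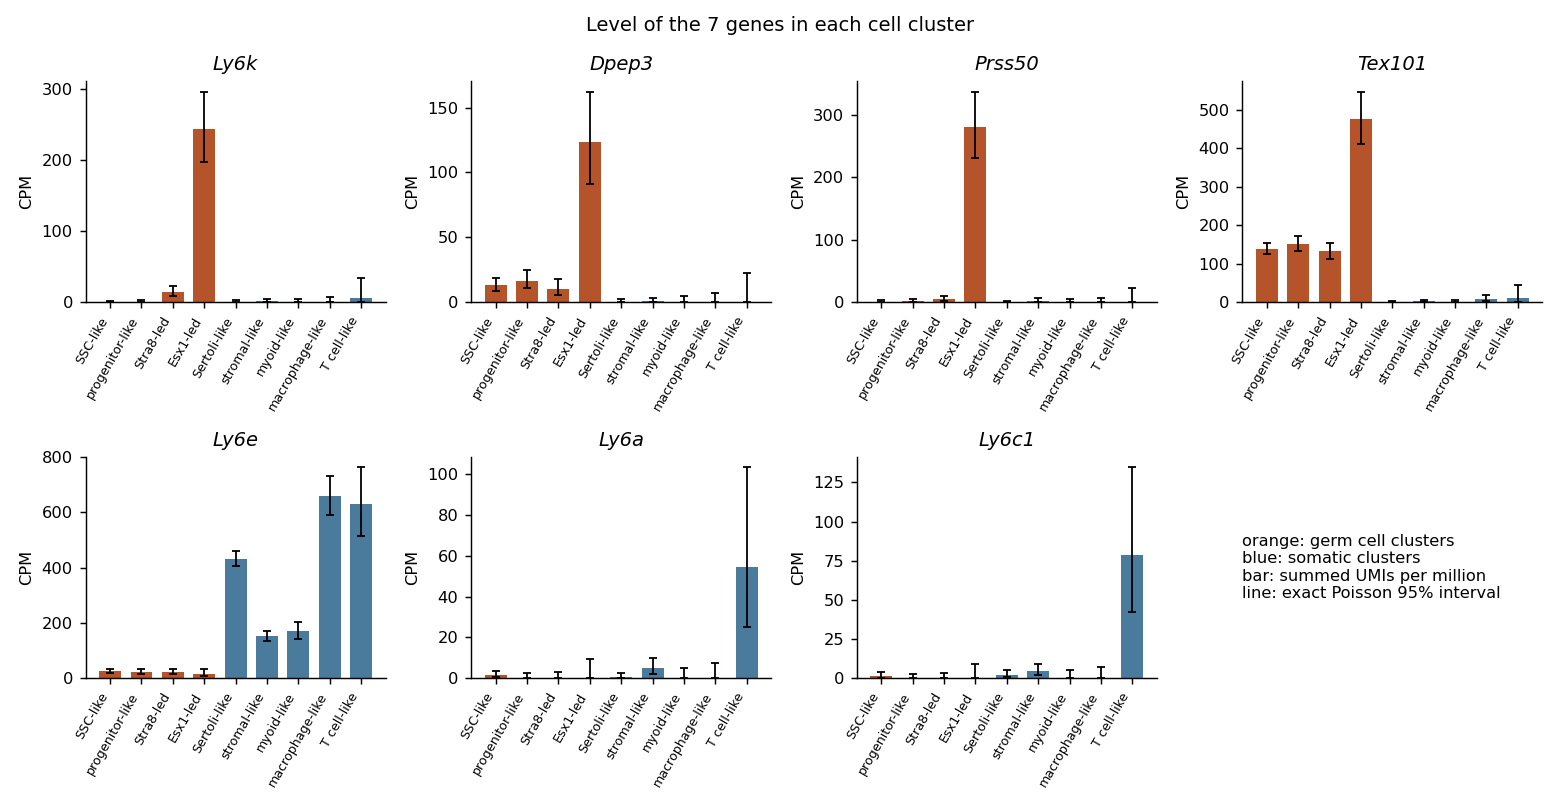
Levels of the 7 genes in CPM (y axis, a separate linear scale for each gene) in the 4 germ cell clusters and 5 somatic classes (x axis), with bars at the summed level and lines for exact Poisson 95% intervals. The 4 genes of the upper row were highest in the Esx1-led cluster, between 123 and 475 CPM, and the LY6 relatives of the lower row in somatic classes.

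Between somatic and germ cells all 7 genes had at least 20 UMIs. Higher in somatic cells by a log2 ratio of at least 1, as 28.7% of 12989 genes were, were Ly6e (3.88, interval 3.62 to 4.15), Ly6c1 (3.11, 1.40 to 5.48) and Ly6a (2.64, 0.86 to 5.04). Lower, as 25.3% of genes were, were Tex101 (-5.89), Dpep3 (-5.84), Prss50 (-4.91) and Ly6k (-4.52). The genes were grouped as germ cell and somatic genes with these values known, so the counts only describe them. With a mitochondrial limit of 5% in place of 10%, which left 67 germ cells in 1 unnamed cluster, the ratio of Ly6k was -1.74, and with germ cells taken by a UMI of Ddx4 or Dazl that of Ly6e was 2.07. With the first ranking of leading genes, which left 136 germ cells, the ratios of Dpep3 and Tex101 were -2.60 and -1.72.

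Along chromosome 15 the listed family held both germ cell and somatic genes. Ly6k, Gml and Gml2, which follow each other among the listed genes, had 21.4, 8.82 and 16.2 CPM in germ cells. In somatic cells they had 0.933, 0.187 and 0.373 CPM. The next listed gene, Ly6e, had 23.0 and 338 CPM. It starts at position 74955051, whereas Gml2 ends at 74834871. Before Ly6k, Lynx1 had 10 UMIs in germ and 30 in somatic cells, Lypd2 had 0 and 6, and Psca had 6 and 1. Gml and Gml2 did not have the stage pattern of Ly6k, with 11.5 and 19.6 CPM in SSC-like and 4.92 and 14.8 CPM in Esx1-led cells (2 and 6 UMIs). The coding sequences of Gml and Gml2 are 86.6% identical over aligned bases, those of Ly6c1 and Ly6c2 92.7% and those of Ly6a and Ly6i 86.3%. Sequences outside the coding part were not compared, and whether reads were shared within these pairs was not tested. Ly6c2 and Ly6i, named here after their values were seen, had 5 and 1 UMIs in all. Slurp1, Ly6d, Ly6g and Ly6f had 0 UMIs in the kept cells.

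**Figure D4:**
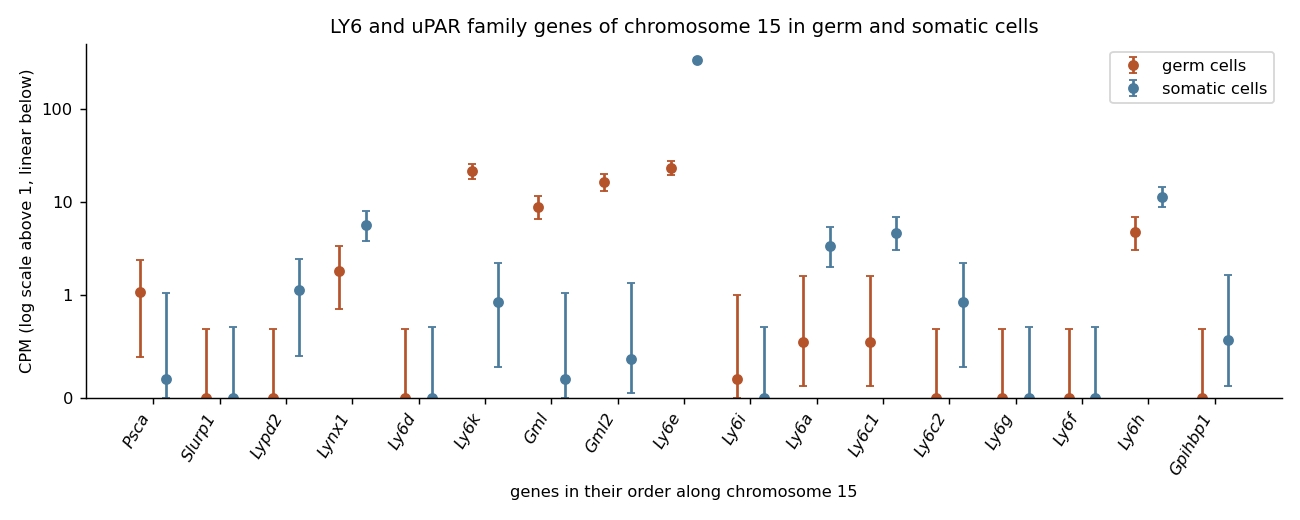
Levels in CPM (y axis, logarithmic above 1 and linear below) of the 17 listed LY6 and uPAR family genes of chromosome 15 in germ and somatic cells, with exact Poisson 95% intervals, in their order along the chromosome (x axis, not to distance). Ly6k, Gml and Gml2 were between 8.82 and 21.4 CPM in germ cells and under 1 CPM in somatic cells. The next listed gene, Ly6e, was at 338 CPM in somatic cells.

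Of the other 38 genes listed for the LY6 and uPAR family, 31 were in the gene list by symbol and 22 had a UMI. Only 5 had at least 20 UMIs in germ cells. Between differentiating-like and undifferentiated cells 0 of them were higher and 0 lower by a log2 ratio of 1 (8.15% and 10.4% of all genes). Against other germ cells, 0 were higher and 2, Ly6h and Lypd6, were lower in the Esx1-led cluster (13.3% and 22.0% of all genes). Both had 0 UMIs in it, with intervals that reach past 0. Between somatic and germ cells 8 could be compared (28.7% of all genes were higher and 25.3% lower). Of these, Cd59a (3.85), Ly6h, Cd59b and Lynx1 were higher in somatic cells and Gml2 (-5.44), Gml (-5.56) and Lypd1 lower. The other listed relatives had too few UMIs in germ cells to be compared by stage.

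Among 10 other dipeptidases and testis serine proteases, none had 20 UMIs in germ cells. Prss41 had 6 UMIs, all in the Esx1-led cluster (14.8 CPM), and Prss42 had 11 UMIs and Prss44 had 8 in germ cells, 3 and 0 of them in that cluster. Dpep1, the kidney-type membrane dipeptidase, was a somatic gene, with 43.2 CPM in stromal-like and 48.6 CPM in myoid-like cells against 2 UMIs in germ cells. Of 15 genes listed as partners of TEX101 or as related sperm and processing proteins, 4 had enough UMIs in germ cells. These were Pgap1 (79), Clgn (64), Rnf185 (56) and Ace (46). Between differentiating-like and undifferentiated cells 0 were higher and 0 lower (8.15% and 10.4% of all genes). Clgn, a chaperone of sperm membrane proteins, was higher in the Esx1-led cluster (log2 ratio 1.55, 0.51 to 2.47, 12 UMIs). Ace was lower there, with 0 UMIs against 46 and an interval that reaches past 0. Of all genes 13.3% were higher and 22.0% lower in that cluster. Between somatic and germ cells Ace was higher and Clgn and Pgap1 were lower (28.7% and 25.3% of all genes). Adam3 and Adam2, which were chosen after their values were seen, had 0 UMIs and 1 UMI in germ cells.

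The enzymes that build and attach GPI anchors were measured for 28 genes, 23 of them with enough UMIs in germ cells. Between differentiating-like and undifferentiated cells 4 were higher (Pigk, Pigm, Pigw and Pigyl, not all of them named by the rule) and 0 lower (8.15% and 10.4% of all genes), with a median log2 ratio of 0.09, as for all genes. Within the Esx1-led cluster 7 were higher and 3 lower (13.3% and 22.0% of all genes), with a median of 0.71 against -0.04 for all genes. Examples chosen after their values were seen are Pigk, the catalytic subunit of the enzyme that attaches the anchor, with 51.7 CPM in the Esx1-led and 12 CPM in the other germ cells (2.1, interval 1.31 to 2.84), and Gpaa1, another subunit, with 86.2 and 27.2 CPM (1.66, 1.09 to 2.21). Pigx, a subunit of the first mannosyltransferase, was lower with 44.3 and 114 CPM (-1.36, -2.12 to -0.69). Between somatic and germ cells 5 of 26 were higher and 3 lower (28.7% and 25.3% of all genes).

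Of 10 other GPI-anchored surface proteins with enough UMIs in germ cells, 0 were higher and 3 lower in differentiating-like cells (8.15% and 10.4% of all genes), namely Gfra1 (-4.35, -6.24 to -2.97), Cd24a (-1.34, -2.27 to -0.51) and Cd52 (-2.17, -5.30 to -0.13). Within the Esx1-led cluster 1 was higher (Prnp, 9 UMIs) and 5 lower (13.3% and 22.0% of all genes), Cd24a and Cd52 among them with 0 UMIs. Between somatic and germ cells 12 of 19 were higher and 3 lower (28.7% and 25.3% of all genes). Thy1, the gene of the protein used for selection and named after its values were seen, had 12 UMIs in germ and 63 in somatic cells, 46 of these in T cell-like cells, so its RNA does not mark the germ cells of this library.

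Of 19 genes of meiotic preparation with enough UMIs in germ cells, 11 were higher and 0 lower in differentiating-like cells (8.15% and 10.4% of all genes), with a median log2 ratio of 1.10 against 0.09 for all genes, and 15 were higher and 0 lower in the Esx1-led cluster (13.3% and 22.0% of all genes), with a median of 1.64 against -0.04. The other 4, Syce2, Stag3, Tex14 and Mael, passed in neither contrast. Meioc had a log2 ratio of 4.89 (4.06 to 5.77) in that cluster and Sycp1 of 1.64 (1.45 to 1.82), while Mael, a piRNA pathway gene, had -0.15 (-0.38 to 0.07). Stra8 and Sycp3 were among the markers that named the clusters, so their part in these counts follows from the naming. Between somatic and germ cells 0 were higher and 19 lower (28.7% and 25.3% of all genes).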

How the data were processed

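Testis cells of 3 wild-type mice were pooled into 1 library with Chromium v2 chemistry. The authors aligned the reads to mm10 with Cell Ranger 2.1.0, per the submitters' processing notes, and deposited UMI counts per gene and barcode without normalization. Whether counting used strand is not given in the sources used here.

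Barcodes were left out below 500 genes, from 10% of mitochondrial UMIs, or where scrublet called a doublet (scanpy 1.11.5, expected rate 0.01, 4 called), 50 in all. With Seurat 5.3.0 in R 4.3.3, counts were log-normalized to 10000 UMIs and 14 principal components and a resolution of 0.5 gave the clusters, after the study's methods. Germ cells were then clustered again. Clusters were named from fixed markers by mean log-normalized expression. They stayed unnamed with fewer than 3 markers detected in at least 10% of their cells. They also did so with more markers of another class than of their own among the 10 leading genes. The same held for a median depth under 1/3 of that of all cells clustered, with no marker of their own among the leading genes. Leading genes were first ranked by summed CPM. This ranking left 136 germ cells, and with that outcome known it was changed to folds of mean log-normalized values. It is kept as an alternative.

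The genes, lists and markers were chosen with earlier results of these data known. Levels, shares and ratios have exact 95% intervals (Poisson, binomial and conditional binomial). For a count of 0 the text instead gives a fixed limit of 3 counts, and the exact upper bounds lie higher. Genes were compared with at least 20 UMIs over the cells compared and were called past a log2 ratio of 1. Genes at 0 UMIs on 1 side count as past it. Cells are not replicates, so no p-value was computed. Named genes are the 7 members, the 5 genes most like each germ cell member, up to 4 genes of each of 6 lists with the most UMIs in germ and in somatic cells, and 8 stage genes. Scripts were tested on simulated data. Another 21 settings were tried, covering filters, clustering, denominator, thinning, score markers and likeness. The first ranking of leading genes was added as 1 more after it had been replaced.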

Additional observations from a re-analysis of the deposited data

How the results depend on the processing

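No paired analysis was possible because the cells form 1 pooled library without replicates and no result comes from a test. No ratio changed sign where its interval excluded 0. Of the alternatives that gave a log2 ratio of differentiating-like over undifferentiated cells, 64 stayed within the interval of the reported value and 5 left it, and of those for somatic over germ cells 93 stayed and 8 left it. The causes were not tested.

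For differentiating-like over undifferentiated cells, Ly6k was 5.35 in the count split and 4.66 when leading genes were ranked by summed CPM. Summed CPM was the first ranking, which was replaced with its outcome known. Under it Tex101 was 1.15 and Prss50 had no ratio with 0 UMIs in undifferentiated cells. Ly6e was -1.11 with 20 principal components and -1.64 with germ cells taken by a UMI of Ddx4 or Dazl. Prss50 ranged from 5.45 to 6.45 and Dpep3 from 1.01 to 1.44. For somatic over germ cells, Ly6e was 3.13 with 20 components, 2.07 with Ddx4 or Dazl and 3.25 with a mitochondrial limit of 5%, where Ly6k was -1.74, Ly6a and Ly6c1 had 0 UMIs in germ cells, and no germ cell class was named. With summed CPM, Ly6k was -6.43, Dpep3 -2.60, Tex101 -1.72 and Ly6e 3.47.

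Thinned to 5000 and then 3000 UMIs, the share of differentiating-like cells with a UMI was 21.6% and 14.2% for Ly6k, 12.4% and 15% for Dpep3, and 55.7% and 40% for Tex101, and for Prss50 14.2% at 3000. In undifferentiated cells it was 0% at both depths for Ly6k and Prss50, 8.24% and 4.32% for Dpep3, and 52.7% and 33.5% for Tex101. A score of Stra8 and Kit minus Gfra1 and Ret gave ratios of the highest over the lowest 3 bins of 5.60 for Ly6k and 4.66 for Prss50. From the lowest to the highest bin of that score Dpep3 had 13.1, 15.6, 19.7, 27.3 and 40.5 CPM. Of the 5 most alike genes, Spearman's rho and thinning kept 3 and 3 for Ly6k, 3 and 2 for Dpep3, and 3 and 2 for Tex101. With at least 50 UMIs, 464 genes were higher and 629 lower in differentiating-like cells, and 1471 were lower in the Esx1-led cluster.

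Ratios of Ly6a, Ly6c1 and, outside the Esx1-led cluster, of Ly6k and Prss50 rest on few UMIs, and intervals cover neither differences between mice nor those between cells.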
